A study of Mus musculus with 9 samples.

Results

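The genes described here encode the kinesin, dynein and dynactin motors that move along microtubules, and they were measured in mouse dorsal root ganglia, taken whole at the lumbar levels L3 to L5. The members are all rows of the count files whose symbol begins with Kif, Klc, Dync1, Dync2 or Dctn and a number, 56 of 38926 genes: 54 protein-coding genes and 2 pseudogenes. The rule uses names and no measured value. Male wild-type (WT) C57BL/6 mice aged 8 to 10 weeks had received vehicle, cisplatin or oxaliplatin by injection into the paw, each drug to a cumulative dose of 40 µg, and the ganglia were those ipsilateral to the injected paws. Each group had 3 libraries and each library was RNA pooled from 4 animals, so the spread between libraries is a spread between pools, and differences between single animals were not measured.

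Kinesins are motor proteins that use ATP to walk along microtubules, most of them toward the plus end, which in an axon points to the terminal. They carry vesicles, mitochondria, neurofilaments and RNA granules outward from the cell body. Cytoplasmic dynein 1 walks the other way, with dynactin as its partner complex, and returns endosomes, autophagosomes and survival signals to the cell body. Sensory neurons of the dorsal root ganglion have some of the longest axons in the body and depend on both directions of transport. Another set of kinesins acts in cell division, where they slide, cross-link or depolymerize spindle microtubules. Mature neurons do not divide, so these mitotic kinesins are usually taken as genes of the dividing cells of a tissue.

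Reads assigned to genes numbered 22819185 to 38808509 per library, and the motor genes took 1.22 to 1.88% of them. Levels are given as CPM, the gene counts scaled to library size with TMM normalization, and a floor of 3 counts corresponded to 0.0711 to 0.188 CPM. Uniquely aligned reads that fell outside genes made up 26.2 to 47.7% in vehicle libraries, 18.6 to 19.1% in cisplatin libraries and 16.6 to 17.8% in oxaliplatin libraries. Vehicle library 2 stood apart, with multiple alignments for 51.0% of its reads and a TMM factor of 0.700, and the main counts are also given without it. As a check of the tissue, none of 20 pan-neuronal markers was at 0, and their sum lay between 24386 and 34999 CPM in each library.

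Of the 56 motor genes, 52 passed the filter on low counts and were tested. Kif12 and Kif2b had no read in any library, and the pseudogenes Kif22-ps and Kif4-ps had at most 1 read. Per kilobase of exon, the most abundant motor transcript in vehicle ganglia was Klc1, a cargo-binding light chain of kinesin-1, at 389 ± 9.29 CPM per kb (SD, n = 3). It was followed by Kif21a, a kinesin that dampens microtubule growth, at 237 ± 8.24, by the kinesin-1 heavy chain Kif5a at 223 ± 23.3, by the dynein motor subunit Dync1h1 at 216 ± 20.4 and by the synaptic vesicle precursor motor Kif1a at 198 ± 22.2 CPM per kb. Neighbours from Kif21a to Kif1a in this order did not differ beyond their spread. The mitotic kinesins all lay at or below 0.899 CPM per kb, the level of Kif11.

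The summed level of the motor genes was lower after either drug. It was 19455, 17496 and 19612 CPM in the vehicle libraries, 12935, 13375 and 14576 after cisplatin, and 16307, 13634 and 14302 after oxaliplatin. No drug library reached the lowest vehicle library. As an unscaled share of gene reads, however, vehicle library 2 had the lowest value of all, 1.22%. In bulk tissue, a lower level through fewer cells of a type and one through less RNA per cell cannot be told apart. The median log2 fold change over the 52 tested members was -0.03 for each drug, so the lower sum was not matched by a lower typical member. With edgeR's quasi-likelihood test and a Benjamini-Hochberg adjusted p under 0.05 over all genes, 21 of 52 members changed after cisplatin, 7 higher and 14 lower, where 38.7% of all 17348 tested genes were called (15.8% higher and 22.9% lower). After oxaliplatin 15 members changed, 4 higher and 11 lower, where 41.6% of all genes were called (17.5% higher and 24.1% lower). The share of members called was thus 40.4% for cisplatin, near the background, and 28.8% for oxaliplatin, below it. Groups did not overlap for 28 members after cisplatin, 12 higher and 16 lower, against 48% of all tested genes (21.3% higher and 26.7% lower), and for 22 members after oxaliplatin, 8 higher and 14 lower, against 50.5% (23.1% higher and 27.4% lower). These comparisons share the vehicle libraries.

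How many members counted as higher depended on the scaling between libraries. With library totals in place of TMM, which moved the median of all genes up by 0.29 for cisplatin and 0.30 for oxaliplatin on the log2 scale, 13 members were higher and 5 lower after cisplatin, and 14 higher and 4 lower after oxaliplatin. Under that scaling 34.5% of all genes were higher and 5.29% lower after cisplatin, and 36.9% and 5.74% after oxaliplatin. Without vehicle library 2 and with TMM, 10 members were higher and 17 lower after cisplatin, where 19.2% and 22.1% of all genes were, and 6 higher and 14 lower after oxaliplatin, where 20.4% and 23% were. The 4 higher after oxaliplatin became 7 without vehicle library 3 and 2 without oxaliplatin library 2 or 3. Of all genes, 13.8%, 11.1% and 11.3% were higher in these fits. The 5 genes with the largest falls after cisplatin, Dync1h1, Kif2a, Kif1a, Dync2h1 and Kif1b, kept their cisplatin calls under each of the 23 other settings tried. Over all 52 members, 33 cisplatin values and 31 oxaliplatin values changed their call, as higher, lower or not passed, under at least 1 of these settings.

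**Figure D1:**
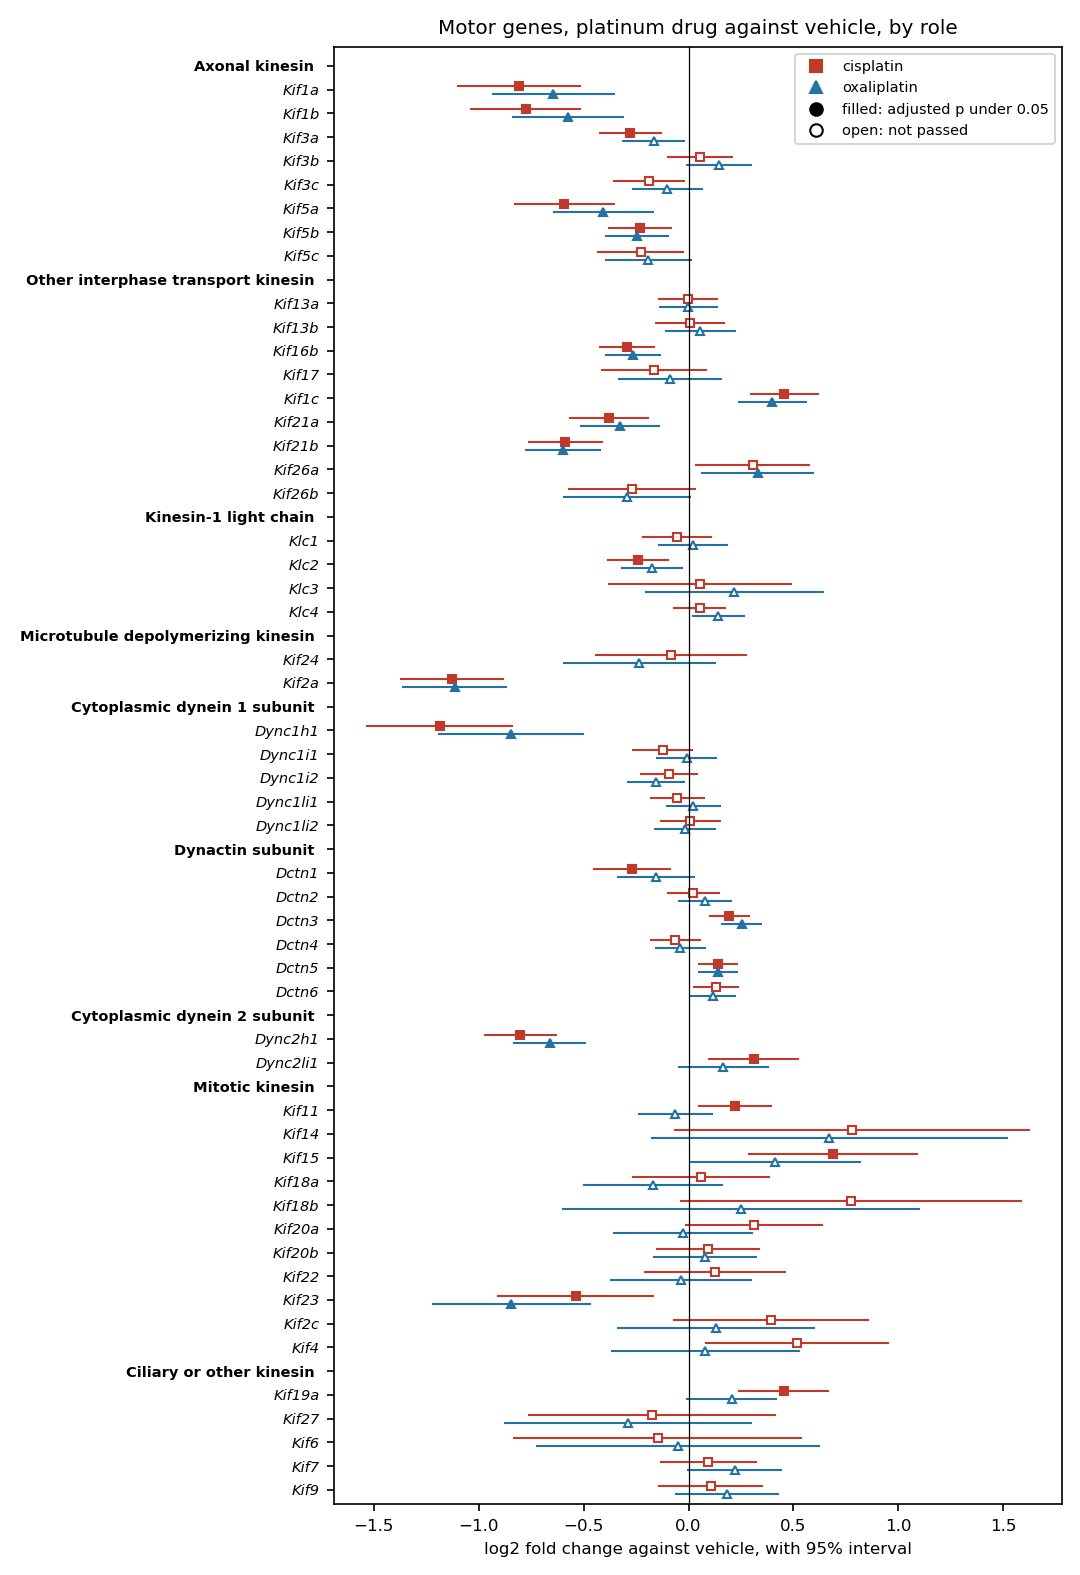
Log2 fold change against vehicle for the 52 tested motor genes, grouped by role, with 95% intervals. Squares are cisplatin and triangles oxaliplatin, and filled symbols passed an adjusted p under 0.05. Dync1h1 and Kif2a lie farthest to the left, at -1.18 and -1.13 for cisplatin, and the mitotic kinesins have the widest intervals.

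The axonal kinesins were lower or did not pass the test, and none was higher. Of the 8 genes, 5 fell after cisplatin and 4 after oxaliplatin, where 22.9% and 24.1% of all tested genes did, with median log2 fold changes of -0.25 and -0.22. Kif1a and Kif1b, kinesin-3 motors that carry synaptic vesicle precursors and, for Kif1b, mitochondria, fell most. Kif5a, the neuron-specific kinesin-1 heavy chain that carries neurofilaments, followed. With library totals in place of TMM the medians were 0.03 and 0.08, with 2 genes lower after cisplatin and 1 higher after oxaliplatin, and without vehicle library 2 they were -0.29 and -0.24, with 7 and 6 genes lower. With the dependence on GC content and length taken out they were -0.20 and -0.11, with 4 lower after cisplatin, and 3 lower and 1 higher after oxaliplatin. Of all genes, 5.29% were lower after cisplatin and 36.9% higher after oxaliplatin with totals. Without vehicle library 2, 22.1% and 23% were lower. With the correction, 17.7% were lower after cisplatin, and 18.1% lower and 17.3% higher after oxaliplatin.

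Kif1a (chr1:93015464-93101951) measured 1925, 1615 and 2008 CPM in the vehicle libraries, 979, 993 and 1197 after cisplatin and 1404, 1007 and 1137 after oxaliplatin. All 6 drug libraries lay below the lowest vehicle library, with oxaliplatin library 1 the closest to it. The log2 fold change was -0.81 (SE 0.13, adjusted p = 0.000635) for cisplatin and -0.64 (SE 0.13, adjusted p = 0.00236) for oxaliplatin. Kif1b (chr4:149176319-149307693) measured 2295, 1975 and 2391 CPM in vehicle, 1232, 1240.3 and 1417 in cisplatin and 1743, 1293 and 1439 in oxaliplatin libraries. Its drug libraries also lay below all vehicle libraries. Its log2 fold change was -0.78 (SE 0.12, adjusted p = 0.000421) for cisplatin and -0.57 (SE 0.12, adjusted p = 0.00257) for oxaliplatin. When the dependence of the counts on GC content and length was taken out of every library, the oxaliplatin value for Kif1b shrank to -0.16 and no longer passed (adjusted p = 0.116), and that for cisplatin still did. With library totals neither Kif1a (-0.36) nor Kif1b (-0.29) passed for oxaliplatin.

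Of the 3 kinesin-1 heavy chains, which move similar cargo and differ in where they are made, 2 fell after each drug. Of all tested genes, 22.9% were lower after cisplatin and 24.1% after oxaliplatin. Kif5a (chr10:127225696-127263348) measured 1608, 1376 and 1691 CPM in vehicle, 988, 999.9 and 1114 in cisplatin and 1333, 1057 and 1139 in oxaliplatin libraries. Every drug library was below every vehicle library. The log2 fold change was -0.59 (SE 0.11, adjusted p = 0.00125) for cisplatin and -0.41 (SE 0.11, adjusted p = 0.0103) for oxaliplatin, and neither passed with library totals (-0.31 and -0.12). Without oxaliplatin library 2 the latter was -0.33 and missed the threshold (adjusted p = 0.0524). Kif5b, the heavy chain made in most cell types, measured 1056, 1018 and 1005 CPM in vehicle, 870.2, 877 and 876 in cisplatin and 898, 844 and 854 in oxaliplatin libraries. This was a small and tightly spread difference, of -0.23 for cisplatin (adjusted p = 0.0182) and -0.25 for oxaliplatin (adjusted p = 0.0125). The sign of the Kif5b difference turned with library totals (0.06 for each drug) and with the GC and length dependence removed (0.01 and 0.04), and its calls were lost for both drugs without vehicle library 1, for cisplatin without any 1 of the cisplatin libraries, and for oxaliplatin without oxaliplatin library 2 or 3. Kif5c, the other neuronal heavy chain, measured 1269.8, 1116 and 1322 CPM in vehicle, 997, 1056 and 1112 in cisplatin and 1183, 1000.3 and 1063 in oxaliplatin libraries. It did not pass for either drug, with values of -0.23 and -0.19 and adjusted p of 0.0713 and 0.119, but passed as lower for both without vehicle library 2 (adjusted p = 0.0135 and 0.0259), and for cisplatin also with DESeq2 (adjusted p = 0.0287) and limma-voom (adjusted p = 0.0426).

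Within the kinesin-1 heavy chains, the share of the per-length level held by Kif5a was 42.6, 41.0 and 43.8% in the vehicle libraries, 36.3, 35.7 and 37.5% after cisplatin and 40.7, 38.1 and 38.9% after oxaliplatin. The share of Kif5c was 33.0% ± 0.485 in vehicle, 36.4% ± 0.581 in cisplatin and 35.4% ± 0.143 in oxaliplatin libraries (SD, n = 3). In both drug groups Kif5a held a smaller and Kif5c a larger share than in any vehicle library. These shares are ratios within a library and do not depend on the scaling between libraries. Each difference had a two-sided exact permutation p of 0.1, the smallest that 3 against 3 libraries allow. The Benjamini-Hochberg value was 0.195 over the 39 share tests made. No share could pass 0.05 with this number of libraries, so the test cannot decide and the shares are given as a description.

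Kinesin-2 is a trimer of a Kif3a motor, a Kif3b or Kif3c motor and the linker Kifap3, and works in axons and in cilia. Kif3a measured 218, 206 and 235 CPM in vehicle, 172, 179 and 193 in cisplatin and 209.8, 190.2 and 188 in oxaliplatin libraries. It fell after cisplatin (-0.28, SE 0.07, adjusted p = 0.00661) and did not pass after oxaliplatin (-0.17, adjusted p = 0.0649), where the groups overlapped. The oxaliplatin value did pass under 6 of the 23 other settings, among them without vehicle library 2 (adjusted p = 0.0379), without oxaliplatin library 1 (adjusted p = 0.0447) and with the GC and length dependence removed (adjusted p = 0.0258). With library totals the cisplatin value was 0.01 (adjusted p = 0.975). Kif3b did not pass for either drug, with 109 ± 12.6 CPM in vehicle, 113 ± 3.15 in cisplatin and 120.2 ± 2.37 in oxaliplatin libraries, nor did Kif3c, with 379 ± 35.8, 332 ± 14.7 and 353 ± 21.9. Without vehicle library 3 Kif3b was called higher for both (0.16, adjusted p = 0.0297, and 0.25, adjusted p = 0.00282), and without vehicle library 2 Kif3c was called lower for cisplatin (-0.24, adjusted p = 0.0148). Of the exons of Kif3c, 35.3% overlap those of another gene, 1110002L01Rik, so its counts are uncertain because the strand setting of the counting is not given in the sources used here. The share of Kif3b in the per-length level of the 3 Kif3 genes was 14.6% ± 0.681 in vehicle, 17.3% ± 0.345 in cisplatin and 17.3% ± 0.554 in oxaliplatin libraries. Kifap3 itself was lower after both drugs, from 496 CPM in vehicle to 379 in cisplatin (-0.39, adjusted p = 0.00103) and 395 in oxaliplatin (-0.33, adjusted p = 0.00253).

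**Figure D2:**
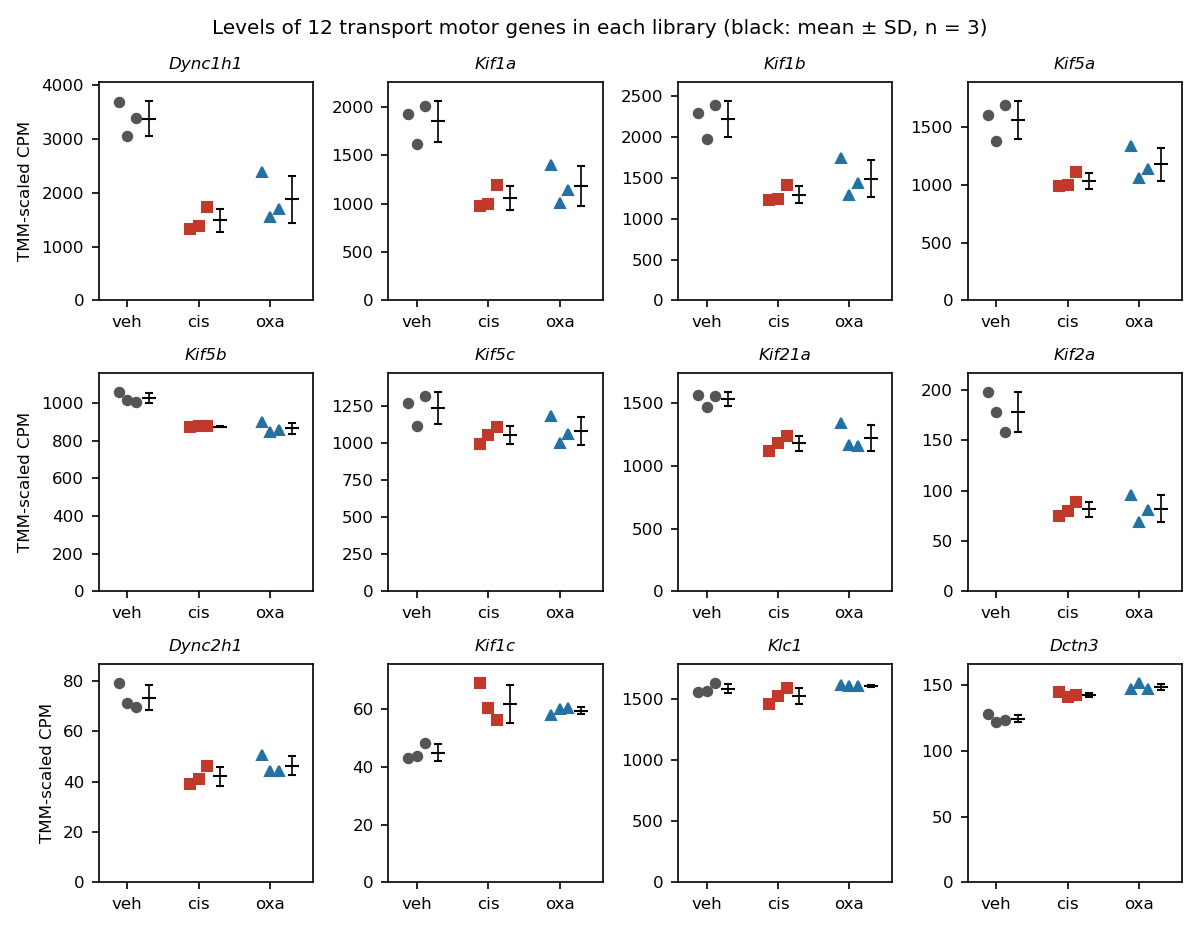
TMM-scaled CPM of 12 transport motor genes in each library (circles vehicle, squares cisplatin, triangles oxaliplatin), with the mean and SD of each group in black and every axis starting at 0. Dync1h1 and Kif2a show a clear gap between vehicle and drug libraries, while Klc1 lies between 1461 and 1628 CPM in all 9.

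Of the 4 kinesin-1 light chains, which attach the heavy chains to their cargo, 1 fell after cisplatin and none passed after oxaliplatin. The share of all tested genes that were lower was 22.9% after cisplatin and 24.1% after oxaliplatin. Klc1 measured 1561, 1565 and 1628 CPM in vehicle, 1461, 1523 and 1591 in cisplatin and 1613, 1603 and 1604 in oxaliplatin libraries, and did not pass (-0.06, interval -0.22 to 0.11, and 0.02, interval -0.14 to 0.18). Klc2 fell after cisplatin, from 249.8 ± 11.8 to 211 ± 17.8 CPM (-0.24, adjusted p = 0.0126), and just missed the threshold after oxaliplatin at 221 ± 7.07 CPM (-0.18, adjusted p = 0.0503). The oxaliplatin value passed as lower under 7 of the 23 other settings, among them DESeq2, limma-voom, the replicate block and the GC and length correction (adjusted p of 0.0380 to 0.0485). The cisplatin call of Klc2 was lost without cisplatin library 1 (adjusted p = 0.0571), and its sign turned with library totals (0.05). Klc3 and Klc4 did not pass for either drug, at 1.01 ± 0.108 and 33.7 ± 1.89 CPM in vehicle. Klc3 shares 28.1% of its exons with Ercc2. The ratio of the per-length levels of Kif5a, Kif5b and Kif5c to those of Klc1 to Klc4 was 1.13 ± 0.0685 in vehicle, 0.919 ± 0.00764 in cisplatin and 0.922 ± 0.0730 in oxaliplatin libraries (SD, n = 3). That ratio was chosen after its values were seen and is given as a description. A dependence of the counts on exon length does not cancel in it. The merged exons measure 6990 to 7981 bases in the Kif5 genes and 2377 to 4134 in the Klc genes.

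In cytoplasmic dynein 1, the motor subunit fell after both drugs, while no other Dync1 gene passed in edgeR. The dynein light chains Dynll1 and Dynlrb1, which rose, are outside the naming rule and are given with the related genes. Dync1h1, the heavy chain that holds the ATPase and binds the microtubule, had the largest fall of any motor gene after cisplatin. Its partners are the intermediate chains Dync1i1 and Dync1i2, which bind dynactin, and the light intermediate chains Dync1li1 and Dync1li2, which bind cargo adaptors.

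Dync1h1 (chr12:110601452-110666945) measured 3688, 3049.5 and 3391 CPM in the vehicle libraries, 1330.4, 1387 and 1738 after cisplatin and 2379.8, 1552 and 1699.7 after oxaliplatin. Neither drug group overlapped with vehicle, and oxaliplatin library 1 was the highest of the drug libraries. The log2 fold change was -1.18 for cisplatin (SE 0.16, interval -1.53 to -0.84, adjusted p = 0.000178) and -0.85 for oxaliplatin (SE 0.16, interval -1.19 to -0.50, adjusted p = 0.00129). The other 4 Dync1 genes had log2 fold changes between -0.12 and 0.01 for cisplatin and between -0.16 and 0.02 for oxaliplatin, and no adjusted p below 0.0584. The lowest of these belonged to Dync1i2 after oxaliplatin, which was called lower by DESeq2 (adjusted p = 0.0413), by limma-voom (adjusted p = 0.0417) and without cisplatin library 1 (adjusted p = 0.0493), and higher with the GC and length dependence removed (0.14, adjusted p = 0.0455). Dync1i1 measured 222 ± 8.90 CPM in vehicle, 204 ± 14.5 in cisplatin and 221 ± 12.5 in oxaliplatin libraries. Dync1i2 measured 374 ± 10.6, 351 ± 20.7 and 336 ± 12.2 CPM in the same order. The light intermediate chains measured 256 ± 3.82, 247 ± 14.1 and 260.3 ± 12.3 CPM for Dync1li1 and 432 ± 20.8, 434 ± 22.6 and 426 ± 15.2 CPM for Dync1li2.

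The per-length level of Dync1h1 over that of both intermediate chains was 1.87 to 2.15 in vehicle, 0.885 to 1.05 in cisplatin and at most 1.41 in oxaliplatin libraries, with a mean of 1.16 ± 0.214 in the last. Against both light intermediate chains it was 1.56 ± 0.131 in vehicle, 0.697 ± 0.0744 in cisplatin and 0.864 ± 0.165 in oxaliplatin libraries. Each of these ratios was lower in every drug library than in any vehicle library, and as ratios within a library they do not depend on the scaling. A dependence of the counts on exon length does not cancel in them. The merged exons measure 15658 bases in Dync1h1 and 3572 to 8280 in the other 4 chains. The ratios were chosen after the values were seen and carry no test.

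**Figure D3:**
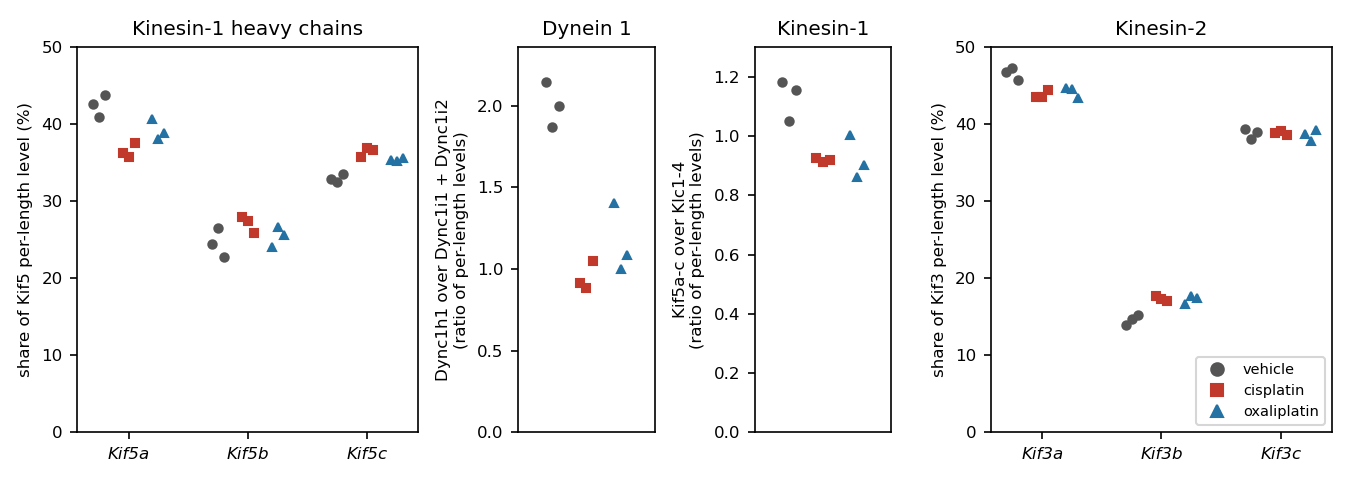
Subunit balance in each library, from per-length levels: shares of the 3 kinesin-1 heavy chains and of the 3 Kif3 genes (%), the ratio of Dync1h1 to its 2 intermediate chains, and the ratio of the Kif5 heavy chains to the Klc light chains. The dynein ratio lies at 1.87 or above in vehicle libraries and at 1.41 or below in drug libraries.

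Dynactin, the complex that makes dynein processive, had subunits on both sides. Dctn1, its microtubule-binding arm, measured 528, 492 and 568 CPM in vehicle, 408, 435 and 475 in cisplatin and 512, 440.4 and 475 in oxaliplatin libraries. It fell after cisplatin (-0.27, adjusted p = 0.0236) and did not pass after oxaliplatin (-0.15, adjusted p = 0.158). That call was lost without vehicle library 1 or 3 and without cisplatin library 1 or 2 (adjusted p of 0.0776 to 0.0963) and with the GC and length dependence removed (-0.13, adjusted p = 0.12), and the value was 0.02 with library totals. Dctn3, a subunit of the shoulder, measured 128, 122 and 123 CPM in vehicle, 144, 141 and 142 in cisplatin and 147, 151 and 147 in oxaliplatin libraries. It rose after both drugs (0.19, adjusted p = 0.00388, and 0.25, adjusted p = 0.000673), and with the GC and length dependence removed the values were -0.04 and 0.00 and neither passed. Dctn5, of the pointed end of the filament, rose from 104 ± 1.21 CPM to 114 ± 1.78 in cisplatin and 114 ± 1.88 in oxaliplatin libraries (0.14 for each, adjusted p = 0.0197 and 0.0181), and with that dependence removed both were 0.05 and did not pass. The oxaliplatin call of Dctn5 was lost without oxaliplatin library 2 or 3.

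The other Dctn genes did not pass for either drug. The filament subunit Actr1b, which rose, is given with the related genes. Dctn6, also of the pointed end, came close, at 58.9 ± 2.92 CPM in vehicle, 64.3 ± 1.51 in cisplatin and 63.7 ± 0.220 in oxaliplatin libraries (0.13, adjusted p = 0.0517, and 0.12, adjusted p = 0.0738), and passed for both without vehicle library 2 (adjusted p = 0.0113 and 0.0148). Dctn2, the subunit that links the shoulder to the filament, measured 424 ± 12.3, 430.4 ± 8.83 and 447 ± 6.87 CPM. Dctn4 measured 273 ± 7.98, 262 ± 9.45 and 266 ± 8.08 CPM. With the GC and length dependence removed, Dctn4 was called higher for both drugs (0.29 and 0.34), and so was Dync1i2 (0.16 and 0.14), while Dync1i1 was called lower for cisplatin (-0.20, adjusted p = 0.0243).

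Cytoplasmic dynein 2 carries cargo back from the tip of the cilium. Its heavy chain Dync2h1 (chr9:6928503-7184446) measured 78.9, 71.0 and 69.7 CPM in vehicle, 39.0, 41.0 and 46.1 in cisplatin and 50.6, 44.3 and 44.0 in oxaliplatin libraries. Its level fell by 0.80 after cisplatin (SE 0.08, adjusted p = 3.16e-05) and by 0.66 after oxaliplatin (SE 0.08, adjusted p = 5.98e-05) on the log2 scale, with no overlap between groups. With the GC and length dependence removed the oxaliplatin value was -0.20 and passed (adjusted p = 0.0114), and when vehicle library 2 was left out as well it was -0.15 and did not (adjusted p = 0.0535). Its light intermediate chain Dync2li1 measured 13.0, 16.3 and 12.8 CPM in vehicle, 17.1, 17.6 and 17.0 in cisplatin and 17.1, 15.6 and 14.1 in oxaliplatin libraries. It rose after cisplatin (0.31, adjusted p = 0.0244) and did not pass after oxaliplatin (0.17, adjusted p = 0.191). The cisplatin call was lost without vehicle library 1 or 3, without cisplatin library 1 or 2, and with the GC and length dependence removed (0.15, adjusted p = 0.229). Without vehicle library 2 the oxaliplatin value passed (0.29, adjusted p = 0.0160).

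Among ciliary and other kinesins, Kif19a, which trims the tips of motile cilia, measured 25.2, 30.3 and 32.0 CPM in vehicle, 45.7, 37.1 and 37.0 in cisplatin and 32.9, 33.8 and 34.1 in oxaliplatin libraries. It rose after cisplatin (0.45, SE 0.10, adjusted p = 0.00337) and did not pass after oxaliplatin (0.21, adjusted p = 0.111). Kif7, the hedgehog pathway kinesin, and Kif9 did not pass for either drug, at 3.95 ± 0.212 and 4.12 ± 0.571 CPM in vehicle. Of the exons of Kif7, 19.1% overlap those of another gene. The 8 motile cilia markers summed to 27.1 to 35.2 CPM in vehicle, 26.9 to 29.2 in cisplatin and 25.4 to 29.8 in oxaliplatin libraries, with the groups overlapping.

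Kif2a, a kinesin that does not walk but takes tubulin off microtubule ends and prunes axon branches, had the largest fall of any motor gene after oxaliplatin. Kif2a (chr13:106958996-107022126) measured 197, 178 and 158 CPM in the vehicle libraries, 74.9, 80.2 and 88.8 after cisplatin and 96.1, 69.3 and 80.8 after oxaliplatin. The highest drug library was well below the lowest vehicle library. The log2 fold change was -1.13 for cisplatin (SE 0.11, interval -1.37 to -0.88, adjusted p = 3.83e-05) and -1.11 for oxaliplatin (SE 0.11, interval -1.36 to -0.87, adjusted p = 2.56e-05). The exons of Dimt1 overlap 19.2% of those of Kif2a. Kif24, a related depolymerase of the centriole, did not pass, with 1.97 ± 0.249 CPM in vehicle, 1.83 ± 0.0916 in cisplatin and 1.65 ± 0.252 in oxaliplatin libraries.

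Of the 9 other interphase kinesins, 1 rose and 3 fell after cisplatin, where 15.8% of all tested genes rose and 22.9% fell, and 2 rose and 3 fell after oxaliplatin, where 17.5% rose and 24.1% fell. Kif1c, a kinesin-3 motor found in many cell types, was the one that rose after both drugs: it measured 42.8, 43.6 and 48.2 CPM in vehicle, 68.8, 60.2 and 56.1 in cisplatin and 57.8, 59.8 and 60.1 in oxaliplatin libraries. Its log2 fold change was 0.46 (SE 0.07, adjusted p = 0.000562) and 0.40 (SE 0.07, adjusted p = 0.00122), opposite in sign to its relatives Kif1a and Kif1b. Kif1c kept its calls for both drugs under the 23 other settings. Kif21b, a neuronal kinesin of dendrites and growth cones, fell from 19.3 ± 1.91 CPM to 12.9 ± 0.791 in cisplatin and 12.8 ± 0.412 in oxaliplatin libraries (-0.59, adjusted p = 0.000209, and -0.60, adjusted p = 0.000152), and passed for neither drug with library totals (-0.30 for each). Kif16b, an early endosome motor, fell from 95.5 ± 6.02 CPM to 78.1 ± 2.46 and 79.7 ± 4.87 (-0.29, adjusted p = 0.00244, and -0.26, adjusted p = 0.00416), and lost both calls with library totals and with the GC and length dependence removed. Kif21a and Kif26a are named because they complete these counts and were chosen after their values were seen. Kif21a measured 1565, 1470.1 and 1559.5 CPM in vehicle, 1114, 1181 and 1240.5 in cisplatin and 1341, 1166 and 1159 in oxaliplatin libraries (-0.38, adjusted p = 0.00455, and -0.33, adjusted p = 0.00964). With library totals Kif21a passed for neither drug (-0.09 and -0.03), and its oxaliplatin call was lost without oxaliplatin library 3 (-0.29, adjusted p = 0.0553). Kif26a rose after oxaliplatin (0.33, adjusted p = 0.0479) and did not pass after cisplatin (0.31, adjusted p = 0.0676). Its drug libraries overlapped with vehicle, and that call was lost without vehicle library 1 or 2, cisplatin library 2 or oxaliplatin library 2 or 3. Kif26b, likewise chosen after its values were seen, did not pass for either drug, but was called lower for both without vehicle library 2 (-0.37, adjusted p = 0.0311, and -0.40, adjusted p = 0.0223).

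The mitotic kinesins were rare transcripts, with a summed level of 26.8 to 30.1 CPM in vehicle libraries, 29.7 to 32.5 in cisplatin libraries and 24.9 to 28.7 in oxaliplatin libraries. Of the 11 genes, 2 rose and 1 fell after cisplatin, where 15.8% of all tested genes rose and 22.9% fell, and 1 fell after oxaliplatin, where 24.1% did. Without vehicle library 2 these counts were 4 higher and 1 lower, where 19.2% and 22.1% of all genes were. For oxaliplatin they were 1 higher and 1 lower, where 20.4% and 23% were. With the GC and length dependence removed they were 5 higher and 0 lower for cisplatin, where 16.7% and 17.7% of all genes were, and 2 higher and 1 lower for oxaliplatin, where 17.3% and 18.1% were. Their median log2 fold change was 0.31 for cisplatin and 0.08 for oxaliplatin, where the median over all tested genes was 0.00 for each. The genes that passed were Kif11, which slides spindle poles apart, its backup motor Kif15, and Kif23, which bundles microtubules at the midzone and closing bridge of a dividing cell.

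The promoters of these 3 genes are shown because most mitotic kinesin promoters hold a short sequence that was found in no axonal kinesin promoter searched. The sequences are RefSeq's for the build GRCm38.p6, read on the gene's strand from 100 bases before to 20 after the first start listed for the gene. Capitals mark TTTGAA (or TTCAAA on the other strand), the core of the cell cycle genes homology region bound by the DREAM and MuvB complexes, and CCAAT (or ATTGG), the site of NF-Y. Dync1h1 is added as a transport motor with neither.
Kif11, chr19:37376282-37376401, plus strand: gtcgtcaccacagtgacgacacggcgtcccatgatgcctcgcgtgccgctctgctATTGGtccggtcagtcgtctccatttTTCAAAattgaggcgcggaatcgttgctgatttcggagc
Kif15, chr9:122950981-122951100, plus strand: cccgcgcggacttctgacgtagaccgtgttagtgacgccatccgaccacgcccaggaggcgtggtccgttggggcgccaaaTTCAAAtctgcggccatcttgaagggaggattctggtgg
Kif23, chr9:61946780-61946899, minus strand: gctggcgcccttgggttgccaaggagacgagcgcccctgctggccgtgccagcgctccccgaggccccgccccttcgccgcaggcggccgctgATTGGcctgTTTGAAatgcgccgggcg
Dync1h1, chr12:110601295-110601414, plus strand: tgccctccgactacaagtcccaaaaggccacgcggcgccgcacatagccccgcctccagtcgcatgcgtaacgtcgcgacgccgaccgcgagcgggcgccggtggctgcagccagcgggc

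Over the longer window of 250 bases before to 50 after the start, 43 of the motor genes had a RefSeq entry. The axonal Kif5a and Kif5b and the mitotic Kif20a were among those without one. Of the windows with a TTTGAA match, those of Kif14, Kif2c, Kif27 and Dctn1 lie well inside the gene's annotated span. TTTGAA on either strand was present in 9 of 10 mitotic kinesin windows, 0 of 6 axonal kinesin windows and 1 of 11 windows of dynein 1, dynactin and light chain genes, against 18.1% of all 27025 windows. CCAAT on either strand was present in 6 of 10, 3 of 6 and 5 of 11, against 37.9% of all windows. In Kif11 and Kif15 the TTCAAA began 19 bases before the start, and in Kif23 the TTTGAA began at base 3 after it. Kif11 and Kif23 carry a CCAAT match 45 and 7 bases before the start, and no such match lies in the window of Kif15. These matches describe the letters in the window and not binding, and genes that share them moved in different directions here.

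Kif11 (chr19:37376403-37421859) measured 6.56, 6.89 and 6.66 CPM in vehicle, 7.86, 7.81 and 7.76 in cisplatin and 6.12, 6.75 and 6.35 in oxaliplatin libraries. The cisplatin libraries lay above all others. The difference was small (0.22, SE 0.08, adjusted p = 0.0413 for cisplatin, and -0.06, adjusted p = 0.589 for oxaliplatin), and its call was lost in 10 of 23 other settings, among them DESeq2 (adjusted p = 0.0987) and the fit with a replicate block (0.0628). It was also lost without vehicle library 1 or 3, cisplatin library 1 or 2, or oxaliplatin library 2 or 3. Kif15 (chr9:122951046-123018733) measured 1.46, 1.63 and 1.07 CPM in vehicle, 2.32, 2.07 and 2.15 in cisplatin and 1.55, 2.04 and 1.81 in oxaliplatin libraries. It rose after cisplatin (0.69, SE 0.18, adjusted p = 0.0113) with no overlap, and did not pass after oxaliplatin (0.41, adjusted p = 0.0955), where the groups overlapped. That oxaliplatin value passed under 7 of the 23 other settings, among them the GC and length correction (0.75, adjusted p = 0.0115). Without vehicle library 3 the cisplatin value was 0.51 (adjusted p = 0.0608).

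Kif23 (chr9:61915905-61946774) went the other way. It measured 3.52, 3.76 and 4.78 CPM in vehicle, 3.33, 2.53 and 2.55 in cisplatin and 1.97, 2.68 and 2.12 in oxaliplatin libraries. Both drug groups lay below vehicle, with a log2 fold change of -0.54 for cisplatin (SE 0.17, adjusted p = 0.0254) and -0.84 for oxaliplatin (SE 0.17, adjusted p = 0.00225). The oxaliplatin call held under the 23 other settings. The cisplatin call was lost in 8 of them, among them without vehicle library 3 (-0.38, adjusted p = 0.142) and without cisplatin library 2 or 3.

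The other 8 mitotic kinesins did not pass for either drug, with log2 fold changes of 0.06 to 0.78 for cisplatin and -0.17 to 0.67 for oxaliplatin. Kif4, which sets the length of the spindle midzone, came closest, at 1.16, 1.44 and 1.17 CPM in vehicle and 1.66, 2.15 and 1.49 in cisplatin libraries (0.52, adjusted p = 0.0568). It was called higher for cisplatin under 12 of the 23 other settings, among them the replicate block (adjusted p = 0.0454), the GC and length correction (adjusted p = 0.0406) and the fit without vehicle library 2 (adjusted p = 0.0444). Kif20a, needed for cytokinesis, measured 2.44, 2.32 and 2.34 CPM in vehicle and 2.75, 2.82 and 3.24 in cisplatin libraries (0.31, adjusted p = 0.117). Its exons overlap those of Cdc23 over 29.3%, and those of Kif4 overlap Pdzd11 over 15.1%. Kif4 and Kif22 also have pseudogene copies, so the counts of these 3 genes are uncertain. Kif2c, a depolymerase of the kinetochore, measured 0.652 ± 0.0523 CPM in vehicle and 0.858 ± 0.0512 in cisplatin libraries (0.39, adjusted p = 0.199). Kif14 and Kif18b had the widest spread, at 0.552 ± 0.395 and 0.490 ± 0.229 CPM in vehicle, near the floor, with values of 0.78 and 0.77 for cisplatin. Kif14 passed for both drugs without vehicle library 2 (1.36, adjusted p = 0.00847, and 1.26, adjusted p = 0.0123). Kif18a, Kif20b and Kif22 differed least, with log2 fold changes of 0.06, 0.09 and 0.13 for cisplatin and no vehicle library above 4.76 CPM. With the GC and length dependence removed, Kif18a was called higher for cisplatin (0.41, adjusted p = 0.0436) and Kif20b for both drugs (0.34, adjusted p = 0.0310, and 0.39, adjusted p = 0.0149).

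**Figure D4:**
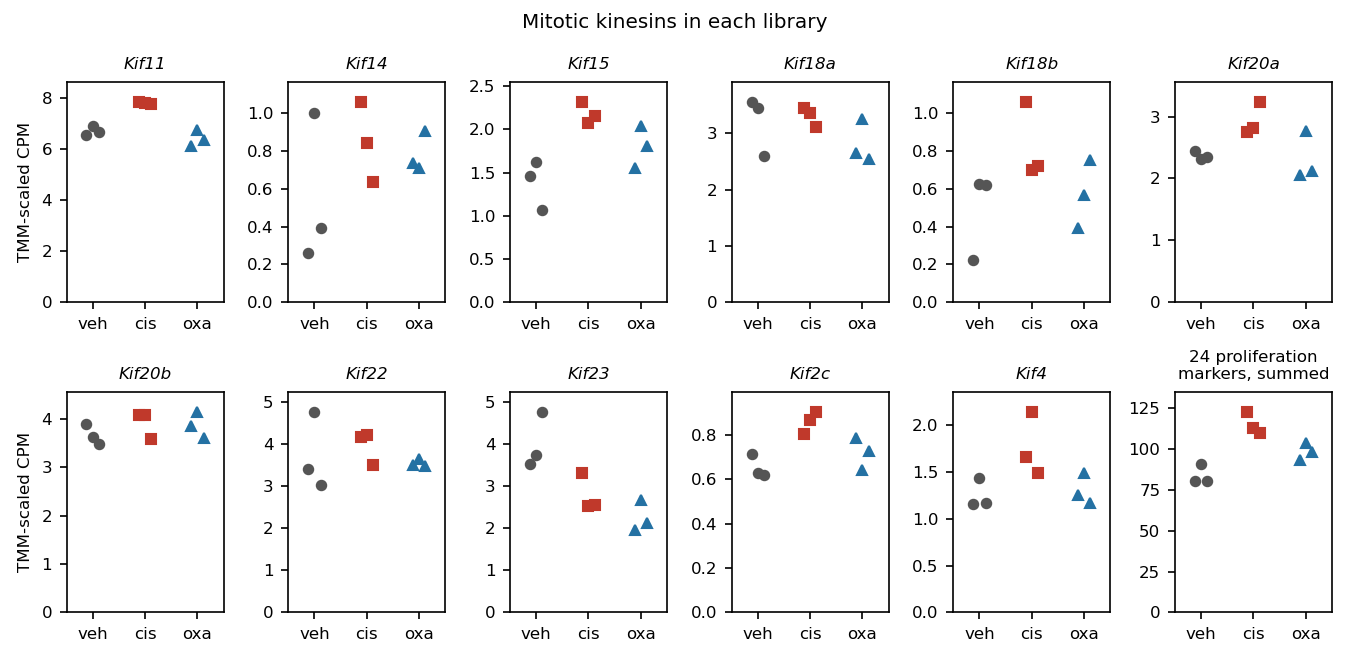
TMM-scaled CPM of the 11 mitotic kinesins in each library, and in the last panel the summed CPM of 24 proliferation markers (circles vehicle, squares cisplatin, triangles oxaliplatin, axes from 0). Cisplatin libraries lie above vehicle for Kif11, Kif15 and the marker sum, at 109.7 to 123 CPM against 80.3 to 91.0, and below it for Kif23.

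Proliferation markers and markers of neutrophils, myeloid precursors, erythroid cells and macrophages were higher beside the rise of Kif11 and Kif15. The 24 proliferation markers summed to 80.5, 91.0 and 80.3 CPM in vehicle, 123, 113 and 109.7 in cisplatin and 93.3, 104 and 97.9 in oxaliplatin libraries, and 15 rose after cisplatin and 7 after oxaliplatin, where 15.8% and 17.5% of all tested genes did. None of the 24 was at 0 in all libraries. The 12 markers of neutrophils and myeloid precursors summed to 45.0 to 106 CPM in vehicle, 178 to 281 in cisplatin and 92.5 to 212 in oxaliplatin libraries, with 12 and 9 of them higher against the same shares of all genes. The 8 erythroid markers summed to 40.6 to 58.1, 101 to 219 and 86.6 to 211 CPM, with 7 and 6 higher against those shares. Of 10 macrophage markers 9 and 7 were higher, and of 4 tested B cell markers 2 and 1, against the same shares. The part of the cells that these lists mark in the levels of the mitotic kinesins was not tested.

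Neuronal markers stood beside the axonal motors. Of 20 pan-neuronal markers, 9 were lower and 2 higher after each drug, where 22.9% of all tested genes were lower and 15.8% higher after cisplatin and 24.1% and 17.5% after oxaliplatin. Their sum was 32022 to 34999 CPM in vehicle, 24386 to 28397 in cisplatin and 25345 to 29011 in oxaliplatin libraries. They did not move as one: the cytoskeletal gene Map1b fell from 10613 to 4822 CPM after cisplatin (-1.14), while the neuronal tubulin Tubb3 (0.11, adjusted p = 0.321) and the neurofilament gene Nefl (0.01, adjusted p = 0.942) did not pass. Of 9 Schwann cell markers, 8 were higher after cisplatin and 4 after oxaliplatin, again against 15.8% and 17.5% of all genes. Satellite glia markers did not rise as a group. Of 6, 1 was higher and 2 lower after cisplatin, and 0 higher and 2 lower after oxaliplatin, against the shares of all genes given above. The part of cell composition in the motor genes' levels was not tested.

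Cisplatin and oxaliplatin were also compared with each other. Groups did not overlap for 9 members, 4 higher and 5 lower after cisplatin, against 14.1% of all tested genes (8.04% higher and 6.1% lower). No motor gene differed at an adjusted p under 0.05 in edgeR, where 0.0115% of all genes did, and the smallest adjusted p was 0.576. At an unadjusted p under 0.05 there were 4 of 52, all higher after cisplatin: Kif11 (0.29), Kif20a (0.34), Kif4 (0.44) and Kif19a (0.25). The share of all genes at this threshold is not given here, so no drug difference is read from that count. Among the 11 mitotic kinesins, all 11 had a higher fitted level after cisplatin, with a median difference of 0.28 on the log2 scale. The median over all tested genes was -0.004. The 11 genes share their libraries and are not independent. The fitted difference of Dync1h1 was -0.34, with an interval of -0.68 to 0.00 (adjusted p = 0.767), and Kif2a differed by -0.01, with an interval of -0.26 to 0.23. For both genes a difference between the drugs as large as that of either drug from vehicle lay outside the interval.

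Exon length moved with the fold changes. Across the 52 motor genes, the Spearman correlation of the log2 fold change with merged exon length was -0.42 for cisplatin and -0.51 for oxaliplatin, against -0.41 for each over the 16380 tested genes with annotation. With the vehicle level, which enters the fold change itself, it was -0.60 and -0.44 across the motor genes. For cisplatin against oxaliplatin it was 0.01 with length and -0.55 with the vehicle level. These are correlations across genes, which share their libraries and are not independent. The median fold change of all genes went from 0.19 in the shortest of 10 bins of length to -0.33 in the longest for cisplatin, and from 0.21 to -0.32 for oxaliplatin. Several of the motor genes that fell most are longer than the median of the 52 tested members, 6434.5 bases. Their merged exons measure 15658 bases in Dync1h1, 16348 in Dync2h1, 17608 in Kif1b and 9330 in Kif1a. Kif2a is shorter, at 6393 bases, and so is Kif5a, at 6990. Kif13b is long as well, at 13017 bases, and had a cisplatin value of 0.01. That value did not pass in the main fit but passed under 3 of the 23 other settings. With the dependence on GC and length taken out, the cisplatin values were -0.81 for Dync1h1, -0.89 for Kif2a, -0.63 for Kif1a, -0.31 for Kif1b and -0.33 for Dync2h1, and each passed. What set this dependence was not tested.

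**Figure D5:**
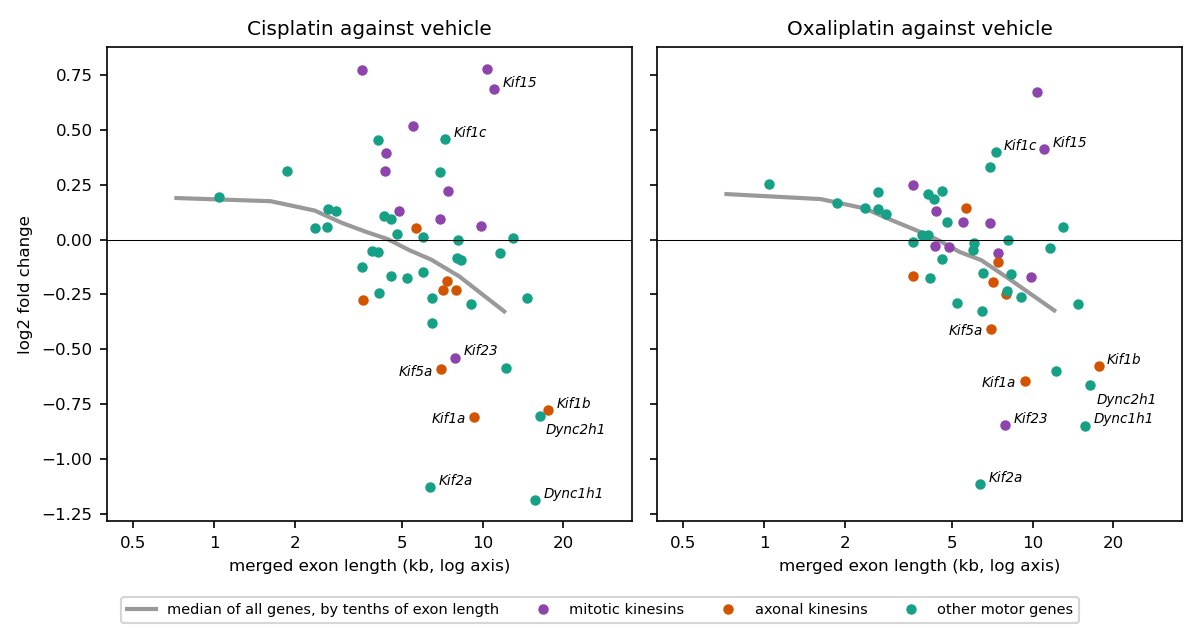
Log2 fold change against vehicle for each tested motor gene by merged exon length (kb, log axis), with the median of all tested genes in 10 bins of length in grey. Dync1h1, Kif2a and Kif1a lie below the grey line for both drugs, while Kif1c and Kif15 lie above it.

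Other genes of motor transport were counted from a list of 60 adaptors, regulators and further subunits, of which 56 were in the files and 54 were tested. After cisplatin 7 were higher and 18 lower, and after oxaliplatin 9 higher and 19 lower, with medians of -0.10 and -0.12. Of all tested genes, 15.8% were higher and 22.9% lower after cisplatin, and 17.5% and 24.1% after oxaliplatin. The dynein adaptors Bicd1 (-0.58 for cisplatin, adjusted p = 5.62e-05, and -0.66 for oxaliplatin, adjusted p = 2.05e-05), Hook1 (-0.59 and -0.65) and Hook3 (-0.41 and -0.53) fell, as did the lysosome GTPase Arl8a (-0.36 and -0.42), the kinesin-1 activator Map7d1 (-0.51 and -0.52) and the cargo linker Appbp2 (-0.52 and -0.52). The genes that rose were led by the dynein regulator Nde1 (0.47 and 0.31), the dynein light chains Dynlrb1 (0.25 and 0.26) and Dynll1 (0.30 and 0.26), the lysosome adaptor Snapin (0.21 and 0.23), the dynein regulator Nudc (0.15 and 0.17) and the dynactin filament subunit Actr1b (0.15 and 0.22). Pafah1b1 (Lis1), chosen after its values were seen as the other main dynein regulator, was lower at -0.33 and -0.34 (adjusted p = 0.00781 and 0.00573).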

How the data were processed

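Each library was stranded total RNA-seq read as 75-nt single ends on a NextSeq 500. Per the submitters' processing notes, the authors used STAR, SAMtools and HTSeq with mm10 (GRCm38), and the deposited files hold raw read counts per gene. For the tool versions, annotation, strand setting and read filter, the sources used here give nothing. The 5 HTSeq classes that name no gene, 42.8 to 74.5% of recorded reads, were left out.

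Counts were fitted over all 9 libraries with edgeR 4.0.16 (R 4.3.3): TMM, filterByExpr with a minimum count of 10, the quasi-likelihood test, and Benjamini-Hochberg adjustment over 17348 genes at 0.05. Log2 fold changes have an SE of the change divided by the root of F, and intervals are 95%. The labels do not say whether pools of a group came from separate experiments, so p-values measure the spread between pools. Per-length levels and positions used GENCODE M21, and promoters RefSeq. The test was checked on simulated data. Alternatives included DESeq2 1.42.0, limma 3.58.1 and a GC and length correction with mgcv 1.9.3.

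Members and lists were chosen with earlier results of these data known. Axonal, mitotic, dynein 1, dynactin and light chain members were all to be named, with the 3 of smallest p per comparison in each other role, and the 5 of smallest p per direction among related genes.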

Additional observations from a re-analysis of the deposited data

How the results depend on the processing

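Of the 52 motor genes, 19 cisplatin values and 21 oxaliplatin values kept their call, as higher, lower or not passed. This held under each of the 23 alternatives in which the gene was tested. Some members of low level did not pass the filter of at least 1 CPM in 3 libraries and were not tested under that alternative. The counts that moved and the values that changed sign along with their call follow, calls that single genes lost or gained are given in the report for the genes described there, and the cause was not tested. Of the motor genes, 7 were higher after cisplatin, against 13 with library totals, 11 with the dependence on GC content and length taken out, with or without a replicate block, and, as alternatives chosen after seeing the data, 15 with totals and 13 with the GC and length correction when vehicle library 2 was left out. The 14 lower after cisplatin became 5 with library totals. Of all tested genes, 34.5% were higher and 5.29% lower after cisplatin with library totals, against 15.8% and 22.9% in the main fit. With the GC and length correction 16.7% were higher, and with that correction and the block 15.8%. Without vehicle library 2, 34.2% were higher with totals and 19.2% with the correction. After oxaliplatin 4 were higher, against 14 with totals, 8 without the count filter, 8 with the GC and length correction, 7 with that correction and a replicate block, 7 at an adjusted p under 0.1, 2 to 7 when 1 library was left out, and, without vehicle library 2, 15 with totals and 12 with the correction. The 11 lower became 4 with totals, and the 15 called in all became 25 with totals and without vehicle library 2. For oxaliplatin, 36.9% of all genes were higher and 5.74% lower with totals, against 17.5% and 24.1% in the main fit. The share higher was 14.4% without the count filter and 22.5% at an adjusted p under 0.1. It was 17.3% with the correction, 16.4% with the block added, and 11.1 to 20.4% when 1 library was left out. Without vehicle library 2, 35.5% were higher and 15% lower with totals, and 20.3% higher with the correction.

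The median of the axonal kinesins turned to 0.030 for cisplatin and 0.078 for oxaliplatin with library totals. So did Dctn1 (0.015), Kif3a (0.0076), Kif5b (0.063) and Klc2 (0.045) for cisplatin, and Kif16b (0.032) and Kif5b (0.058) for oxaliplatin. The GC and length correction alone, with the block, and without vehicle library 2 gave Dctn3 -0.038, -0.034 and -0.085 for cisplatin and -0.044 for oxaliplatin in the last of these. In that order Dctn4 was 0.289, 0.289 and 0.313 for cisplatin and 0.342, 0.342 and 0.367 for oxaliplatin, and Kif5b was 0.011, 0.011 and 0.039 for cisplatin and 0.039, 0.039 and 0.068 for oxaliplatin. Dync1i2 was 0.163, 0.161 and 0.190 for cisplatin, and 0.144 without the block and 0.173 without vehicle library 2 for oxaliplatin.

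Replicate numbers did not pair the libraries, since same-numbered libraries deviated with correlations of -0.14 to 0.11. With the replicate block 153 of the tested values kept their call, 2 passed that had not and 1 no longer did, and over all genes the block gave 2685 higher and 3958 lower for cisplatin and 2984 and 4156 for oxaliplatin. Over all genes, library totals gave 5987 higher and 917 lower for cisplatin and 6408 and 996 for oxaliplatin, against 2744 and 3971, and 3043 and 4178, with TMM. Between the drugs, edgeR called 2 genes higher and 0 lower after cisplatin, DESeq2 11 and 4, the fit without a count filter 11 and 5, library totals 30 and 38, and the replicate block 0. Pools of 4 animals limit what 3 libraries a group can show, and a gene under 0.188 CPM is at the floor of the shallowest library.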
